A study of Mus musculus with 6 samples.

Results

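The genes described here are L1cam, the neural adhesion molecule removed in these mice, and 7 genes that work beside it at the neuronal surface: Chl1, Nrcam, Ncam1, Cntn1, Cntn2, Alcam and Cd24a. They were taken by name, and every probe set whose only gene symbol in the array annotation was one of these names was kept. This gave 10 of the 12422 probe sets tested, covering 7 of the 8 genes. Ncam1 had 3 probe sets, Chl1 had 2, and L1cam, Nrcam, Cntn1, Alcam and Cd24a had 1 each. No probe set carried the symbol Cntn2, so this gene was not analysed here.

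RNA was measured in whole cerebellum at postnatal day 11 on Affymetrix Murine Genome U74Av2 arrays, and each array was taken as 1 mouse. The 3 knockout mice were males of genotype L1CAM knockout (-/Y), lacking an intact copy of the X-linked gene. The 3 wildtype mice were their siblings, with no sex given, and both groups were of the congenic strain 129S2/SvPasCrlf. The sources used here do not give which part of the gene was altered, nor where its probes lie. Values are log2 expression values made with RMA, a procedure that removes background, brings the arrays to a common scale and combines the probes of each probe set. One log2 unit is a doubling.

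L1cam is a transmembrane protein with immunoglobulin and fibronectin domains that sits on growing axons, including those of cerebellar granule neurons. It binds to itself on neighbouring membranes and, on the same or another membrane, to integrins, neuropilin, contactins, NCAM and CD24. Its cytoplasmic tail is held by ankyrins. Chl1 and Nrcam belong to the same family, Ncam1 encodes NCAM, Cntn1 and Cntn2 encode contactins anchored in the membrane by a lipid, and Alcam encodes another immunoglobulin adhesion molecule. Cd24a encodes a small, heavily glycosylated surface protein that is not an immunoglobulin protein but is a known partner of L1cam.

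The tissue label was checked against cerebellar markers. Pcp2, a Purkinje cell gene, read 13.06 to 13.07 on knockout and 13.00 to 13.18 on wildtype arrays, and Zic1, a granule neuron gene, read 13.97 to 14.08 on knockout and 13.99 to 14.06 on wildtype arrays. Of 14 listed cerebellar neuron genes 12 were measured, 9 with a lower and 3 with a higher knockout mean (median -0.042). Over all genes 61.7% were lower. The summed levels of the 12 overlapped, at 76120 to 83210 in knockouts and 74820 to 87220 in wildtype. Among them Atoh1 alone did not overlap, at 8.58 to 8.66 in knockouts and 8.73 to 8.79 in wildtype. Over all genes the groups did not overlap for 10.7%, so 1 of 12 is nothing particular to these genes. Knockout 1 stood apart from the other arrays at 2 Y-linked genes and at the Gapdh control. Its Eif2s3y, a Y-linked gene, read 7.11 against at least 8.59 on the other arrays, and its Uty, also Y-linked, read 6.67 against at least 7.32, whereas Y-linked Kdm5d read 7.217 against at least 7.218. Xist, expressed from the inactive X chromosome of females, was not raised on knockout 1, at 6.33 against 6.31 to 6.41 on the other arrays. No array read high at this probe set, so its ability to detect Xist was not shown here. The 3' control probe set for Gapdh exceeded the 5' one by 0.668 on knockout 1, against -0.048 to 0.13 on the other arrays. Over all probe sets knockout 1 was not the most deviant array. Its array weight in limma, lower for arrays that lie further from the fit, was 1.57. Weights of the other arrays ran from 0.606 (knockout 2) to 1.61 (wildtype 3). Because of its control and Y-linked values, differences of the adhesion genes are also given without knockout 1. Of 9 marker lists for cell types, 2 had summed linear levels that did not overlap between genotypes. The 3 blood genes summed to 34250 to 38740 in knockouts and 28760 to 32760 in wildtype. All 3 had a higher knockout mean, but by itself only Hba-a1 did not overlap, while Hbb-b2 and Alas2 did. The 2 measured of 4 brain stem genes summed to 463.3 to 515.1 in knockouts and 533.6 to 537.8 in wildtype. These 2, Hoxb3 and Prph, lay at percentiles 38.0 and 24.6 of mean level. How often sums of other genes separate the genotypes was not computed, so the count of lists is a description only. The summed levels of the 6 measured oligodendrocyte genes overlapped, at 18230 to 23200 in knockouts and 20920 to 25750 in wildtype, but all 6 genes had a lower knockout mean (median -0.17) and knockout 1 had the lowest sum. The sums of the 3 measured of 5 choroid plexus genes varied widely within both genotypes and overlapped. They ran from 2127 to 7172 in knockouts and from 1969 to 7126 in wildtype, and knockout 1 had the highest. The part of these lists in the adhesion gene values was not tested. In whole tissue, fewer cells of a type and less RNA per cell cannot be told apart.

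L1cam, represented by probe set 99800_at, read 8.25, 8.01 and 7.91 on the knockout arrays, against 8.79, 8.48 and 8.73 on the wildtype arrays. Every knockout array lay below every wildtype array, and 0.23 log2 units separated the highest knockout from the lowest wildtype. The mean was 8.06 ± 0.17 in knockouts and 8.66 ± 0.16 in wildtype (SD, n = 3 each). The knockout signal came to 65.8% of the wildtype signal (95% interval 56.1% to 77.1%), a difference of -0.60 on the log2 scale (SE 0.10). Across all 12422 probe sets this was the largest difference in either direction, and L1cam was the only probe set at least 1.5-fold apart (0.00805% of the array). It did not pass the threshold of 0.05 after Benjamini-Hochberg adjustment in limma (adjusted p = 0.841), nor did any other probe set (0% of the array called). The exact permutation p was 0.1, 2-sided, the smallest that 3 arrays against 3 allow.

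Among the knockouts, knockout 1 had the highest L1cam value. Without it the difference was -0.70 (SE 0.10, limma adjusted p = 0.363). With the Gapdh gap as a covariate it was also -0.70 (limma adjusted p = 0.687). The difference kept its sign without any 1 of the 6 arrays, between -0.70 and -0.53. L1cam ranked first by size of difference as deposited and under all 3 other scalings tried. It ranked 2 with the Gapdh covariate, 8 with array weights and from 2 to 18 when 1 array was left out.

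**Figure D1:**
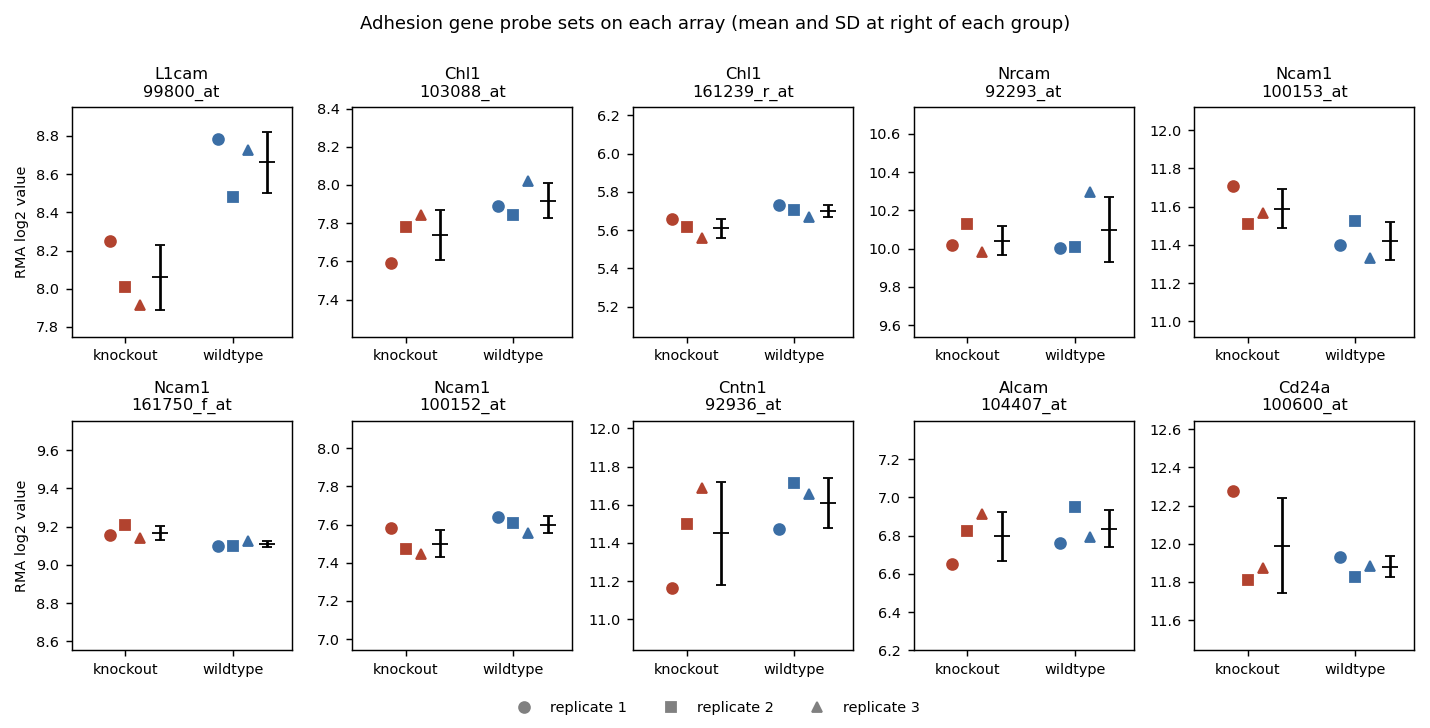
RMA log2 values (y axis, every panel spanning the same number of log2 units) of the 10 probe sets on the 3 knockout and 3 wildtype arrays, with mean and SD in black at the right of each group (n = 3 each). L1cam is clearly apart between genotypes. The circle of knockout 1 is the highest Cd24a point and the lowest Cntn1, Alcam and Chl1 103088_at point.

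Apart from L1cam, no adhesion gene probe set differed by more than 0.18 log2 units. Of the other 9, 6 had a lower and 3 a higher knockout mean, running from -0.18 to 0.17, and the limma adjusted p-values ran from 0.922 to 0.967. For all 9, the limma 95% interval excluded a change of 1.5-fold (0.585 log2 units) either way. That was also so for 99.3% of the probe sets on the array, so it describes the precision of these arrays and nothing particular to adhesion genes. The intervals bound the array signal, and RMA tends to compress differences of dim probe sets. Among the 9, Chl1 161239_r_at, Alcam and Chl1 103088_at lay at percentiles 0.974, 14.2 and 29.1 of mean level. A larger change in RNA is not excluded for such probe sets. The median difference over the 10 probe sets was -0.074, beside -0.023 over all probe sets, of which 62.3% had a lower knockout mean. That share depended on scaling and was 44.6% after median centring and 52.2% after quantile normalization, while the 10 adhesion probe sets kept their split of 7 lower and 3 higher under each scaling. At an unadjusted p under 0.05 there were 3 of 10, namely L1cam, 1 probe set of Chl1 and 1 of Ncam1, against 5.08% of all probe sets. The groups did not overlap for 3 of 10, namely L1cam, the other Chl1 probe set and another Ncam1 probe set, against 10.4% of all probe sets. With so few members these shares are counts and not a test, and L1cam, as the targeted gene, is 1 of the 3 in both.

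**Figure D2:**
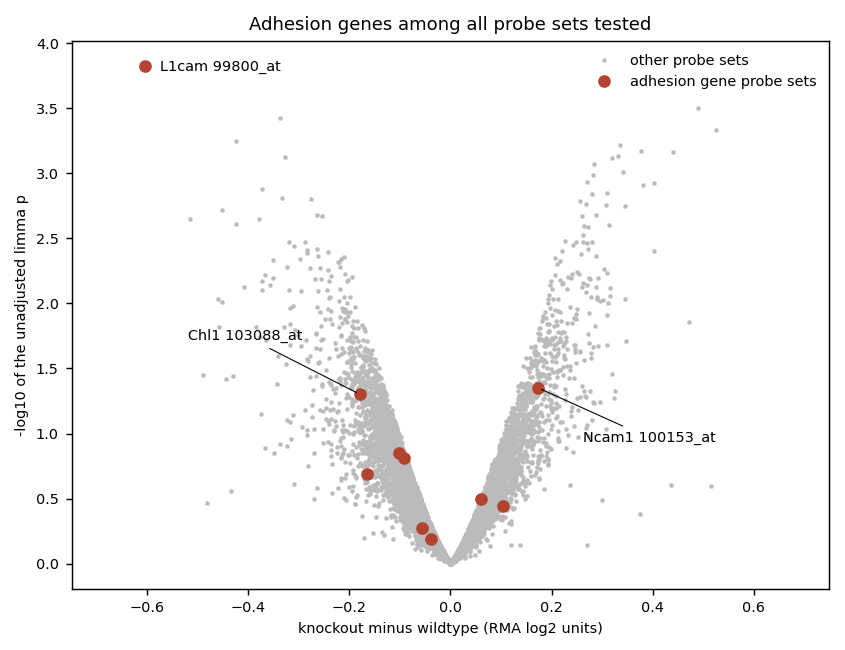
Each point is 1 of the 12422 probe sets, with the difference knockout minus wildtype in RMA log2 units on the x axis and -log10 of the unadjusted limma p on the y axis. L1cam lies alone at the upper left, at -0.60, while the other 9 adhesion gene probe sets (red) lie within the mass of the array.

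Chl1, the close homolog of L1, lay slightly lower in the knockouts at both of its probe sets. Probe set 103088_at read 7.59, 7.78 and 7.84 on the knockout arrays, against 7.89, 7.84 and 8.02 on the wildtype arrays. The groups met, with an overlap of only 0.0032 between knockout 3 and wildtype 2. The difference was -0.18 (SE 0.08), with an unadjusted p of 0.0499 and an adjusted p of 0.922 in limma. It ranked 618 by size among all probe sets. Knockout 1 was the lowest array, and without it the difference was -0.11 (limma unadjusted p = 0.214). With the Gapdh gap as a covariate the difference was -0.091 (limma unadjusted p = 0.262). Array weights moved it the other way, to -0.24 (limma unadjusted p = 0.0135, adjusted p = 0.496).

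The other Chl1 probe set, 161239_r_at, read 5.66, 5.61 and 5.56 on the knockout arrays, against 5.73, 5.70 and 5.67 on the wildtype arrays. All knockout values lay below all wildtype values, by a margin of 0.013. The difference was -0.091 (95% interval -0.22 to 0.041, limma adjusted p = 0.927). This probe set lay at percentile 0.974 of mean level on the array, near the bottom of the range. The difference was -0.11 without knockout 1, and after median centring its groups overlapped. The gap between the 2 Chl1 probe sets did not separate the genotypes. It was 1.94 to 2.29 in knockouts and 2.14 to 2.35 in wildtype (exact permutation p = 0.6, 2-sided).

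Nrcam, the family member of growth cones and nodes of Ranvier, read 10.02, 10.13 and 9.98 on the knockout arrays, against 10.001, 10.006 and 10.30 on the wildtype arrays. The genotypes overlapped, and wildtype 3 stood above the other 5 arrays. The difference was -0.057 (95% interval -0.25 to 0.14, limma adjusted p = 0.95), and it was 0.041 without wildtype 3 and -0.045 without knockout 1. The interval bounds the knockout signal between 84.0% and 110% of wildtype. Nfasc, the remaining family member, had no probe set with a single symbol.

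**Figure D3:**
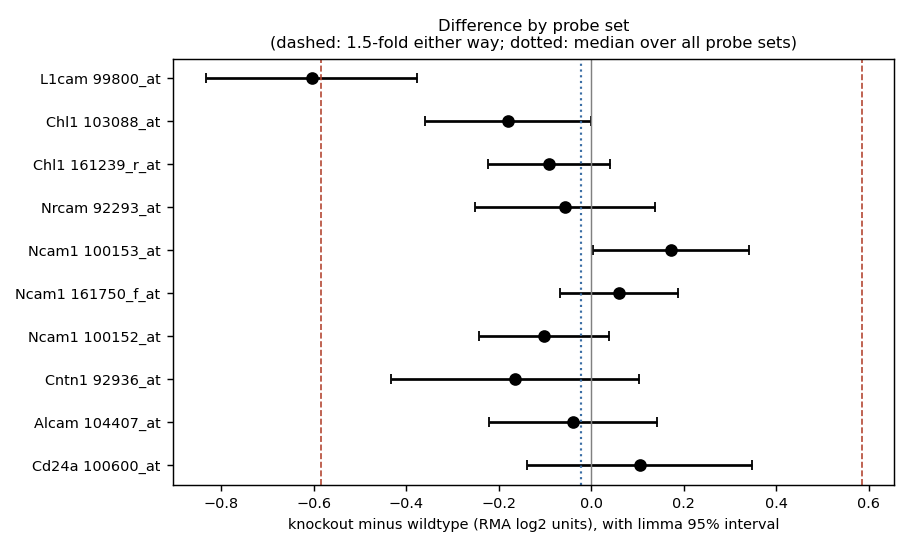
Difference knockout minus wildtype in RMA log2 units for each probe set (points) with its limma 95% interval (bars, 6 arrays). Dashed lines mark 1.5-fold either way and the dotted line the median over all probe sets, -0.023. The L1cam interval, -0.83 to -0.38, is the only one to cross a dashed line.

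Ncam1, which encodes NCAM, gave differences of opposite sign at its probe sets. NCAM is made in several splice forms that differ in how they are held in the membrane, and it is the main carrier of polysialic acid in the brain. Probe set 100153_at read 11.71, 11.51 and 11.56 on the knockout arrays, against 11.40, 11.53 and 11.33 on the wildtype arrays. Only wildtype 2 reached into the knockout range. The difference was 0.17 (95% interval 0.005 to 0.34), with an unadjusted p of 0.0446 and an adjusted p of 0.922 in limma. It was 0.12 without knockout 1 (limma unadjusted p = 0.178). With the Gapdh gap as a covariate it was 0.10 (limma unadjusted p = 0.22). Array weights moved it the other way, to 0.23 (limma unadjusted p = 0.0103, adjusted p = 0.485).

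Probe set 161750_f_at of Ncam1 read 9.16, 9.21 and 9.14 on the knockout arrays, against 9.10, 9.10 and 9.13 on the wildtype arrays. The groups did not overlap, but the margin was 0.014 and the difference 0.060 (95% interval -0.067 to 0.19, limma adjusted p = 0.932). Without knockout 1 the difference was 0.066. The suffix of this probe set marks probes that can match sequences of other genes. Probe set 100152_at read 7.58, 7.47 and 7.44 on the knockout arrays, against 7.64, 7.61 and 7.55 on the wildtype arrays. Its difference ran the other way, at -0.10 (95% interval -0.24 to 0.040, limma adjusted p = 0.927), with knockout 1 inside the wildtype range, and was -0.14 without that array.

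Set against each other within each array, 2 of the 4 pairs of probe sets of 1 gene separated the genotypes, both of them Ncam1 pairs. The share of such pairs that separate over the whole array was not computed, so the count is a description only. The value of 100153_at minus that of 100152_at was 4.13, 4.04 and 4.12 on the knockout arrays, against 3.76, 3.92 and 3.78 on the wildtype arrays. The groups did not overlap, and the gap was wider in knockouts by 0.27 log2 units (means 4.09 ± 0.051 in knockouts and 3.82 ± 0.086 in wildtype, SD, n = 3 each). The exact permutation p was 0.1, 2-sided, the smallest possible, and 0.2 after adjustment over the 4 pairs of probe sets compared. The gap between 161750_f_at and 100152_at was also wider in knockouts, by 0.16, and did not overlap (1.58 to 1.74 in knockouts, 1.46 to 1.57 in wildtype, exact permutation p = 0.1, adjusted 0.2). The gap between 100153_at and 161750_f_at did overlap (2.30 to 2.55 in knockouts, 2.21 to 2.42 in wildtype, exact permutation p = 0.4, adjusted 0.533). Without any 1 array the first of these differences stayed between 0.25 and 0.32. The 2 pairs that separated share 100152_at and are not independent. By mean level 100152_at lay at percentile 24.4 of the array, against 92.9 for 100153_at and 54.8 for 161750_f_at. The part of its lower level in these gaps was not tested. The sources used here do not say which Ncam1 transcripts each probe set detects.

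**Figure D4:**
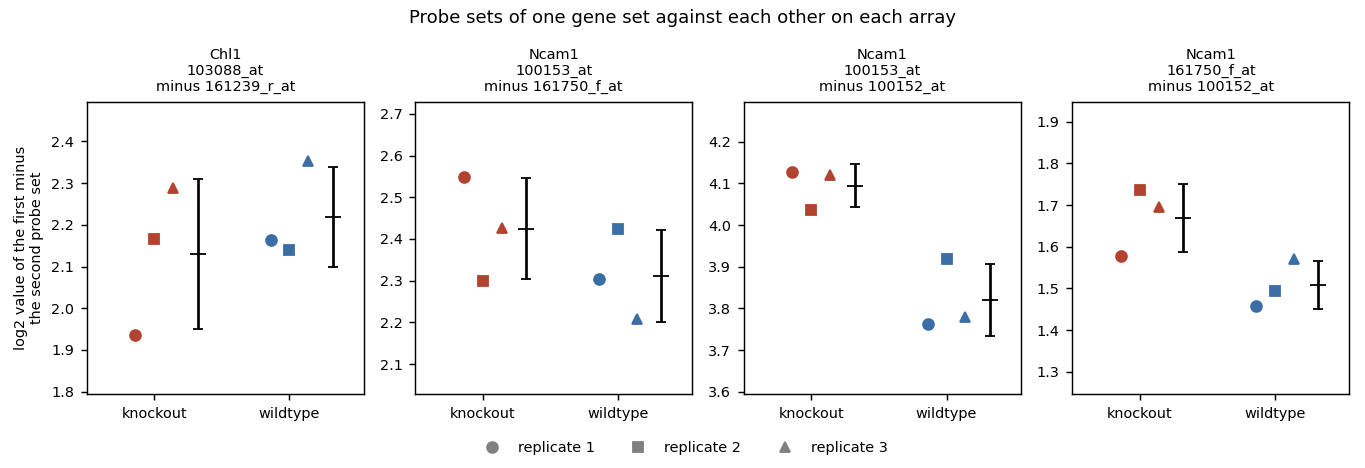
For the 4 pairs of probe sets of 1 gene, the log2 value of the first minus the second (y axis) on each array, with mean and SD in black (n = 3 each). The genotypes are apart in both Ncam1 pairs that involve 100152_at, at 4.04 to 4.13 in knockouts and 3.76 to 3.92 in wildtype for the first of them, and overlap in the other pairs.

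Cntn1, a contactin of axons and of the junctions beside nodes of Ranvier, read 11.16, 11.50 and 11.69 on the knockout arrays, against 11.47, 11.71 and 11.65 on the wildtype arrays. Knockout 1 lay lowest and knockouts 2 and 3 lay within the wildtype range. The difference was -0.16 (95% interval -0.43 to 0.10, limma adjusted p = 0.932), -0.02 without knockout 1 and -0.28 without knockout 3 (limma unadjusted p = 0.0305). With the Gapdh gap as a covariate it was -0.012, and with array weights -0.24. The knockout SD of 0.27 was the widest among the adhesion probe sets, so a change smaller than the interval was not detectable with these arrays.

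Cd24a had its outlying value on the same array, in the other direction. It read 12.28, 11.81 and 11.87 on the knockout arrays, against 11.93, 11.82 and 11.89 on the wildtype arrays. Knockout 1 was the highest of all 6 arrays. The difference was 0.10 (95% interval -0.14 to 0.35, limma adjusted p = 0.932), -0.041 without knockout 1 and 0.19 without knockout 2. It was -0.051 with the Gapdh gap as a covariate and 0.18 with array weights.

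Alcam read 6.65, 6.82 and 6.91 on the knockout arrays, against 6.76, 6.95 and 6.80 on the wildtype arrays. These are low values, at percentile 14.2 of mean level on the array. The genotypes overlapped, with knockout 1 again the lowest array. The difference was -0.039 (95% interval -0.22 to 0.14, limma adjusted p = 0.967). It was 0.034 without knockout 1 and 0.017 without wildtype 2.

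**Figure D5:**
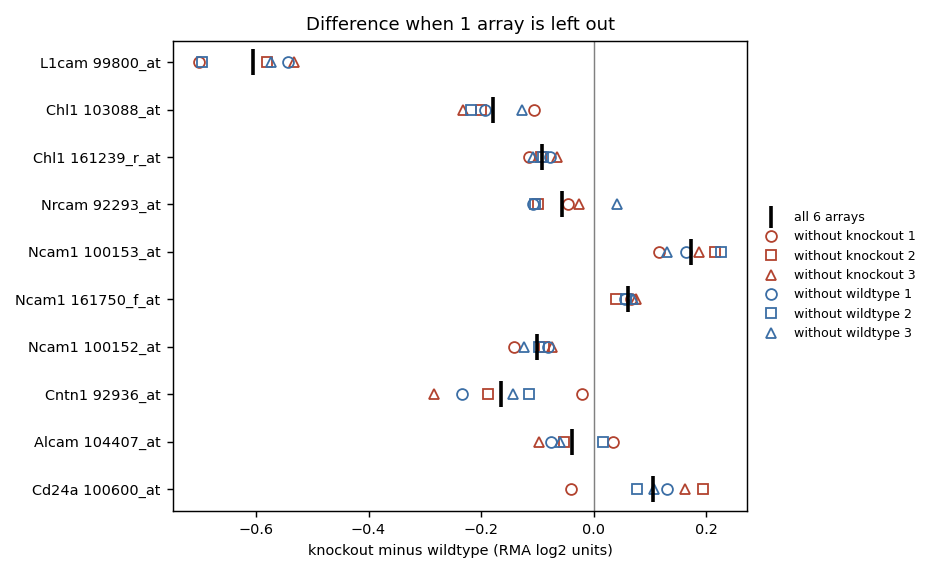
Difference knockout minus wildtype in RMA log2 units with all 6 arrays (black bar) and with 1 array left out (open symbols, knockout arrays in red and wildtype arrays in blue). L1cam stays between -0.70 and -0.53. The red circles, without knockout 1, bring Cntn1 to -0.02 and Cd24a to -0.041.

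The distance of L1cam from its relatives was also read within arrays, by subtracting 1 probe set of each relative from L1cam (6 pairs). Since L1cam has the largest difference on the array, every such quantity had to be lower in knockouts, and it was, from -0.78 against Ncam1 100153_at to -0.42 against Chl1 103088_at. What varies is whether the genotypes overlap, and L1cam minus any other probe set of the array separated them in 93.8% of cases. L1cam minus Nrcam was -1.77, -2.12 and -2.07 on the knockout arrays, against -1.22, -1.53 and -1.57 on the wildtype arrays. L1cam minus Ncam1 was -3.46, -3.50 and -3.65 on the knockout arrays, against -2.62, -3.05 and -2.61 on the wildtype arrays. L1cam minus Cd24a was -4.02, -3.80 and -3.96 on the knockout arrays, against -3.15, -3.35 and -3.16 on the wildtype arrays. In these 3 of 6 pairs the genotypes did not overlap (exact permutation p = 0.1, 2-sided, adjusted 0.2 over the 6 pairs), which is nothing particular to these relatives beside the 93.8%.

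Against the other 3 relatives the genotypes overlapped, and in each of these 3 pairs knockout 1 alone reached the wildtype range. L1cam minus Chl1 ran from 0.07 to 0.66 in knockouts and from 0.64 to 0.89 in wildtype (exact permutation p = 0.2, adjusted 0.24). L1cam minus Alcam ran from 1.0004 to 1.6003 in knockouts and from 1.53 to 2.02 in wildtype (exact permutation p = 0.2, adjusted 0.24). L1cam minus Cntn1 ran from -3.77 to -2.91 in knockouts and from -3.23 to -2.69 in wildtype (exact permutation p = 0.3, adjusted 0.3). With the other probe sets, L1cam minus Ncam1 differed by -0.66 (161750_f_at) and -0.50 (100152_at), and L1cam minus Chl1 by -0.51 (161239_r_at). Over single omissions L1cam minus Cntn1 ran from -0.68 without knockout 1 to -0.25 without knockout 3, L1cam minus Chl1 from -0.59 to -0.30 for the same arrays, and the other 4 pairs stayed between -0.92 and -0.43. All 6 pairs share the L1cam values, and no pair could pass 0.05 with 3 arrays against 3.

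The array patterns most like that of L1cam were sought among 10823 other probe sets with 1 symbol, by Pearson's r over the 6 arrays. Since L1cam itself separates the genotypes, r here mixes the genotype difference with differences among arrays of 1 genotype. How many high values unrelated patterns would give over 6 arrays was not computed, so the counts are a description only. There were 103 probe sets with r of at least 0.9 and 54 with r of at most -0.9. The highest were Ubfd1 at 0.999, Svil, an actin-binding protein, at 0.977, and Ero1b, an oxidase of the endoplasmic reticulum, at 0.975. Ubfd1 read 9.76, 9.71 and 9.70 on the knockout arrays, against 9.88, 9.82 and 9.87 on the wildtype arrays, a difference of -0.13. It follows the order of L1cam within each genotype over a much smaller span. The remaining Ubfd1 probe sets differed by -0.13 and -0.0575. The Ero1b probe set can match sequences of other genes, by its suffix. The most opposite were Ogn, a small leucine-rich proteoglycan of connective tissue, at -0.995, Rbm18 at -0.987 and Srp14, a subunit of the signal recognition particle, at -0.985. Ogn read 6.68, 6.80 and 6.87 on the knockout arrays, against 6.48, 6.59 and 6.48 on the wildtype arrays. Its difference was 0.26, and 0.095 at its other probe set. None of the 6 passed in limma (adjusted p from 0.885 to 0.927).

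Further genes of L1cam's surroundings were read from 4 lists with 1 probe set per gene, the brightest. No member of any list passed in limma after adjustment, as for all 8251 genes (0% called). The groups did not overlap for 10.7% of those genes, 61.7% of them had a lower knockout mean, and their median difference was -0.022. After median centring 44.2% of the genes had a lower knockout mean, and the median over all probe sets was 0.0089. The lists were not tested as sets.

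Among other immunoglobulin adhesion molecules and related surface proteins, 16 of 33 listed genes were measured, 6 with a higher and 10 with a lower knockout mean. Their median was -0.030 and became 0.0021 after median centring. For 2 of the 16 there was no overlap between genotypes. The smallest unadjusted limma p-values belonged to basigin (Bsg), the contactin Cntn3 and neogenin (Neo1), at 0.17, 0.212 and 0.228. Bsg, an immunoglobulin protein that accompanies lactate transporters, differed by 0.12. Cntn3 differed by -0.081 and Neo1, a guidance receptor, by 0.083. Cntn3 read 7.14, 7.10 and 7.13 on the knockout arrays, against 7.27, 7.14 and 7.21 on the wildtype arrays, with no overlap.

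Among extracellular partners, matrix ligands and co-receptors of L1cam, NCAM and the contactins, 29 of 34 were measured, 8 with a higher and 21 with a lower knockout mean, and a median of -0.039. After median centring 18 were lower and the median was -0.0074, where 44.2% of all genes were lower. Genotypes were apart for 5 of 29 (17.2%). The laminin chain Lamb1 read 8.48, 8.62 and 8.36 on the knockout arrays, against 8.71, 8.64 and 8.86 on the wildtype arrays, a difference of -0.25 (SE 0.08), and -0.16 at its other probe set. The first of these can match sequences of other genes, by its suffix. Plxna1, a plexin that acts with neuropilin as a semaphorin receptor, differed by -0.12 without overlap. The proteoglycan versican (Vcan) differed by -0.13, with wildtype 2 inside the knockout range.

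Among intracellular partners, 18 of 21 were measured, of which 10 had a higher and 8 a lower mean in knockouts (median 0.0062). The median had no settled sign, being 0.038 after median centring (6 lower), -0.041 with the mean of each gene's probe sets and -0.023 without knockout 1. Genotypes were apart for 2 of 18. Ank3, which encodes ankyrin G, the scaffold that binds the tails of L1 family proteins, read 11.13, 11.06 and 11.19 on the knockout arrays, against 11.23, 11.23 and 11.57 on the wildtype arrays. Its difference was -0.22 (SE 0.09), and -0.24 at its other probe set. Ank1 differed by -0.26, with overlap, at a probe set with the same suffix, and its remaining probe sets gave -0.23 and -0.022. The kinase Fyn differed by 0.13 without overlap.

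Among enzymes that modify or cut these surface proteins, 11 of 17 were measured, of which 4 had a higher and 7 a lower mean in knockouts (median -0.0071). After median centring 4 were lower and the median was 0.025. Genotypes were apart for 2 of 11. St8sia4, one of the polysialyltransferases that add polysialic acid to NCAM, read 8.64, 8.38 and 8.82 on the knockout arrays, against 8.85, 8.88 and 8.85 on the wildtype arrays. The groups were apart by a narrow margin set by knockout 3, and the difference was -0.25 (SE 0.10, limma unadjusted p = 0.0323, adjusted p = 0.922). Aph1a, a subunit of gamma-secretase, differed by -0.08 without overlap. Plasminogen (Plg), the precursor of a protease that can cleave L1, differed by -0.15 with overlap.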

How the data were processed

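The deposited table holds log2 values, 1 per probe set and array. Per the submitters' processing notes the authors computed them with RMA. No version, settings or genome build could be taken from the sources used here, so no coordinates are printed. Of 12488 probe sets, 66 were array controls and were not tested. Symbols came from the array annotation, which gave 1 symbol for 10833 probe sets. The identifiers of all members with a probe set matched a RefSeq gene table.

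Differences were fitted over all 12422 probe sets with limma 3.58.1 in R 4.3.3 (genotype as the only term, eBayes, 2-sided, Benjamini-Hochberg). Values within arrays were compared with exact permutation tests (scipy 1.17.1). The procedure was tested on simulated data. The members, lists and tests were chosen with earlier results of these data known. The genes named outside the members were the 3 with the smallest unadjusted p in each list and the 3 probe sets most like and most opposite to L1cam. Each array was taken as 1 mouse, since the design text counts 3 per genotype. Arrays carry no read depth, and their number limits the precision. RMA tends to compress differences of dim probe sets, and normalization hides an overall change in RNA amount. Each member was refitted under up to 16 other settings.

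Same-numbered knockout and wildtype arrays did not deviate together throughout (correlations of deviations 0.16, -0.316 and 0.169), so the replicate number was not used as a pairing.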

Additional observations from a re-analysis of the deposited data

How the results depend on the processing

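Under none of the settings tried did limma call an adhesion gene probe set at an adjusted p of 0.05. L1cam kept its sign in all of them, between -0.70 and -0.53, with adjusted p from 0.196 (replicate block) to 1. L1cam was not tested when only probe sets above percentile 40 of mean level were kept, since it lies at percentile 38.5. The replicate number as a block left the L1cam difference at -0.60 (limma adjusted p = 0.196) and changed no call. Signs turned, with none past the threshold, for Nrcam without wildtype 3 (0.041), for Ncam1 100152_at with the mean of the gene's probe sets (0.044), for Alcam with the Gapdh covariate (0.030), without knockout 1 (0.034) and without wildtype 2 (0.017), for Cd24a with the Gapdh covariate (-0.051) and without knockout 1 (-0.041), and for the gap between the Chl1 probe sets without knockout 1 (0.0089). The cause was not tested. Over single omissions Nrcam ran from -0.11 to 0.041, Alcam from -0.098 to 0.034, Cd24a from -0.041 to 0.19, Cntn1 from -0.28 to -0.02 and the Chl1 gap from -0.17 to 0.0089. The count of adhesion probe sets without overlap, 3 of 10, was 1 of the 5 left with the filter on dim probe sets, where fewer were tested, 2 after median centring and 4 after cyclic loess. It ran from 3 to 5 over single omissions, where 17.0% to 27.8% of all probe sets did not overlap. The count of all probe sets past the threshold was 0 and ran from 0 to 1 over single omissions, the 1 being Sox11 without knockout 3 (-0.69, adjusted p = 0.0447).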
